A study of Mus musculus with 6 samples.

Results

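A set of 31 mouse genes that mark macrophages, other leukocytes and the ligands that sustain macrophages was examined in whole islets of the pancreas, where the insulin-producing beta cells sit among other endocrine cells. The genes were chosen by symbol and were matched by Ensembl ID to 31 of the 56980 rows of the count table. Bulk islet RNA, taken at 14 weeks of age, gave 3 control libraries, labelled SSBP3F/F, and 3 knockout libraries, labelled SSBP3F/F; MIP-CreER. Both groups, which were littermates, thus carried floxed alleles of Ssbp3, which encodes a nuclear partner of the LDB1 cofactor. Only the knockout group carried the inducible Cre recombinase driven by the mouse insulin promoter, so the deletion is directed at beta cells and not at leukocytes. The labels do not give the timing of Cre induction. No libraries with the transgene and intact Ssbp3 were analysed here, so transgene and knockout cannot be told apart. Nothing in the labels tells 1 animal from a pool for any library, and p-values then measure only the spread between these libraries, which may be technical.

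Islets contain resident macrophages that lie along the capillaries, take up beta-cell products and present antigen. They depend on the receptor encoded by Csf1r, which is bound by CSF1 and by IL-34, and they carry the transcription factor PU.1, the product of Spi1. Macrophages are also the main source of C1q, the recognition unit of the classical complement pathway, built from the A, B and C chains. T and B cells are few in islets of mice without autoimmune disease. In bulk RNA, fewer cells of a type and less RNA per cell cannot be told apart.

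PU.1 and the other ETS factors bind DNA around a GGAA core, and the letters of the promoters are shown for 4 members whose values are described below. Sequences are the 250 bases before the RefSeq start on GRCm38.p6, a build other than that of the counts, written 5′ to 3′ on the gene's strand. Capitals mark matches on either strand to AGGAAG or to the longer GAGGAAG, which contains it.
C1qb (chr4:136886201-136886450, strand minus): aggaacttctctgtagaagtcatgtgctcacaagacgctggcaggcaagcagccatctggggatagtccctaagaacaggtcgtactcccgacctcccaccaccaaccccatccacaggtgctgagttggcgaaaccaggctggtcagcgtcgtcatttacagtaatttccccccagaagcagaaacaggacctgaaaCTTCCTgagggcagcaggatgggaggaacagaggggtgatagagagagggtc
C1qc (chr4:136892915-136893164, strand minus): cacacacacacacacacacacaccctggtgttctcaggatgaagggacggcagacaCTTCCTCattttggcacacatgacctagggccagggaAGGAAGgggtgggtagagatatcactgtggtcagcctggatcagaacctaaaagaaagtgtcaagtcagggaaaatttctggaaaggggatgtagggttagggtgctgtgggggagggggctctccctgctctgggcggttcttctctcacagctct
Laptm5 (chr4:130913066-130913315, strand plus): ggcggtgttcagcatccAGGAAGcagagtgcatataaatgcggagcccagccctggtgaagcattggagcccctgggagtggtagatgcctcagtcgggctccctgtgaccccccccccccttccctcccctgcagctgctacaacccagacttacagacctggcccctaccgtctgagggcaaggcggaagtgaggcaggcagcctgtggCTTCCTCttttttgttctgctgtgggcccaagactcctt
Csf1 (chr3:107760470-107760719, strand minus): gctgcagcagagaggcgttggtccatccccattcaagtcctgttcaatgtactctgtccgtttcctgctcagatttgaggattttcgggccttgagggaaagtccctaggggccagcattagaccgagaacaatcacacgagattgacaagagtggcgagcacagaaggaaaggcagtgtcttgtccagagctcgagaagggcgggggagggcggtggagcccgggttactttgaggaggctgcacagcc
RefSeq windows were at hand for 20 of the 31 genes, in 24 windows. AGGAAG stood in 14 of these 24 windows (58.3%), against 29.5% of all 32851 promoter windows of this length, and GAGGAAG in 6 of 24 (25%), against 10.6%. C1qc, Laptm5, Itgam, Mrc1 and Fcgr3 held the longer form. The Csf1 window held neither, and so did the windows of Cd68, Cx3cr1, Aif1, Itgax, Lcp1, Ccr2 and Cd8a. The T-cell genes Cd3d and Cd3e held AGGAAG. These matches describe letters and not binding.

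Library totals ranged from 14907641 to 225428920 counts, with 1 shallow library in each group, control 1 and knockout 1. Values are counts-per-million (CPM) on TMM-scaled library sizes, where 1 count was worth 0.00451 CPM in the deepest library and 0.0647 CPM in knockout 1, the shallowest. Ssbp3 itself stood at 65.8, 81.3 and 74.2 CPM in the controls and at 52.3, 58.1 and 57.1 CPM in the knockouts (in both cases libraries 1 to 3). The groups did not overlap, as in 28.0% of all genes tested, and Ssbp3 missed the threshold (log2 fold change -0.40, SE 0.12, adjusted p = 0.0581 by edgeR). Whole-gene counts from mixed islet cells do not measure recombination in beta cells. Acinar markers, which show exocrine tissue carried along with islets, summed to between 27570 and 94430 CPM, with the highest sum in knockout 2 and the lowest in knockout 3. Knockout 1 and 2 stood apart in leukocyte RNA. Knockout 1 had the highest level of 17 of the 23 leukocyte genes that passed the filter on low counts, and knockout 2 was set apart by neutrophil granule genes described further on.

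Macrophage members were detected in all 6 libraries, the 5 T- and B-cell members were close to or at 0, and no member was called different between knockout and control islets. The filter on low counts passed 25 of the 31 members. By edgeR with Benjamini-Hochberg adjustment over the 18558 genes tested, 0 of these 25 were called at an adjusted p under 0.05, against 7.07% of all genes tested (3.72% higher and 3.35% lower). At an unadjusted p under 0.05, 3 of 25 were higher (Lcp1, C1qa and Csf1) and 0 lower, against 10.9% and 10.7% of all genes (21.6% either way). DESeq2 called 1 member, C1qa, and limma-voom 0. Of all genes, DESeq2 called 1107 of 18556 higher and 987 lower, and limma-voom 794 of 18558 higher and 732 lower. The 2 groups did not overlap for 1 of 25 members, C1qa, while they did not overlap for 28.0% of all genes.

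Log2 fold changes, knockout over control, were above 0 for 20 of 25 members, with a median of 0.24 and a range from -0.43 for Cx3cr1 to 1.07 for Itgam. Over all genes tested the median was -0.0016, and 49.8% were above 0. The count of 20 rested on knockout 1: without that library 10 of 25 were above 0 and the median was -0.09. With limma-voom 13 of 25 were above 0.

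**Figure D1:**
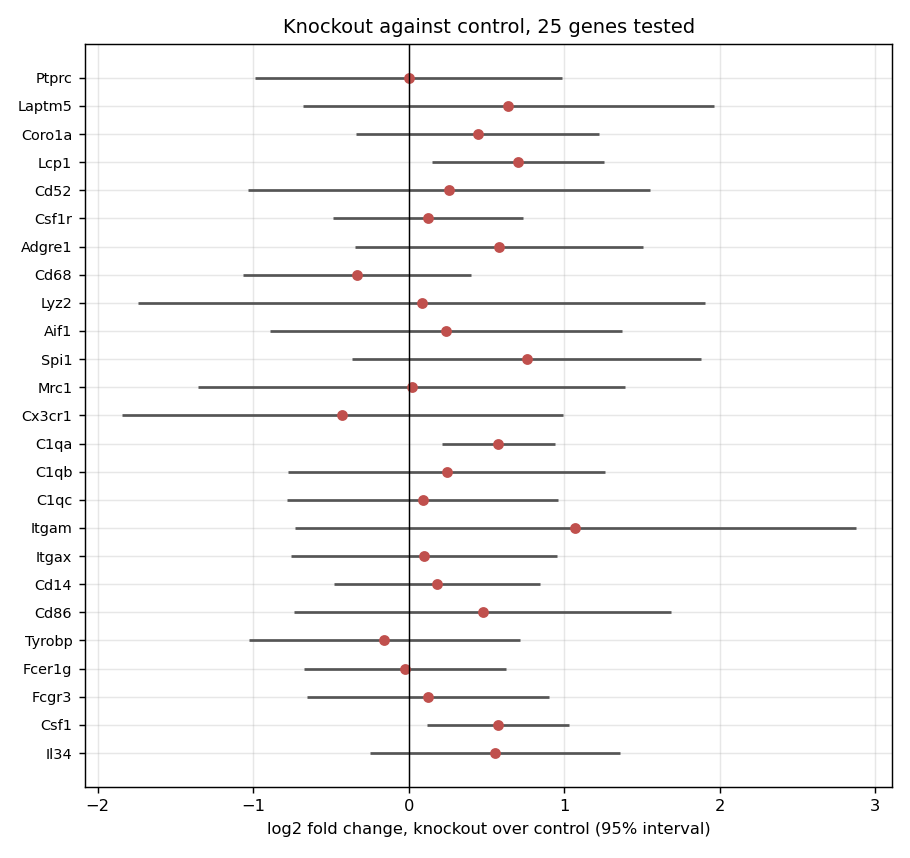
Log2 fold change of each of the 25 genes tested (x axis, knockout over control), ordered by role on the y axis. Points are edgeR estimates and lines their 95% intervals; only the lines of Lcp1, C1qa and Csf1 lie wholly above 0, and none lies wholly below.

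The spread among the knockout libraries was wide. The 29 members other than the ligands summed to 159.0, 140.1 and 163 CPM in the controls, against 275, 169.0 and 130.5 CPM in the knockouts. Knockout 1 thus lay above every control and knockout 3 below every control. Over the 23 tested leukocyte members, the median ratio to the gene's middle level over the 6 libraries was 1.63 in knockout 1, 1.09 in knockout 2 and 0.766 in knockout 3. In control 1, 2 and 3 it was 1.004, 0.819 and 1.06. Knockout 1 exceeded the gene's median for 20 of 23 members, and knockout 3 for 3 of 23.

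**Figure D2:**
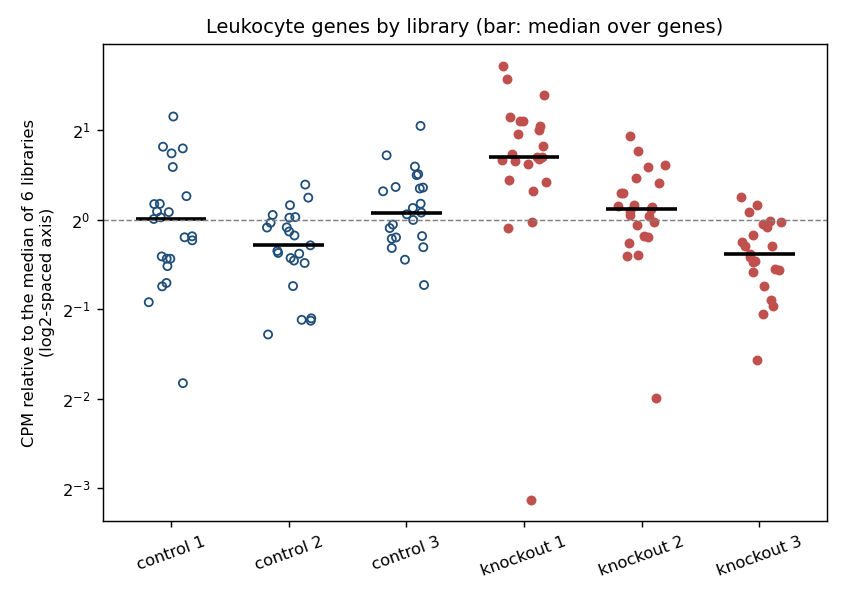
Level of each of 23 leukocyte genes in a library relative to its median over the 6 libraries (y axis, log2-spaced), with libraries on the x axis. Points are genes and bars their median, which is highest in knockout 1 at 1.63 and lowest in knockout 3 at 0.766.

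Among genes shared by all leukocytes, Ptprc, which encodes the phosphatase CD45 on every nucleated blood cell, measured 3.39, 0.946 and 2.12 CPM in control and 2.72, 1.95 and 1.71 CPM in knockout libraries. The knockout values fell within the control range, and the log2 fold change of -0.00061 had a 95% interval from -0.99 to 0.99.

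Laptm5, a lysosomal membrane protein gene of blood cells, stood at 9.60, 9.24 and 16.0 CPM in control and 33.5, 12.6 and 9.99 CPM in knockout libraries. The high value was that of knockout 1 alone, and the gene was not called (log2 fold change 0.64, SE 0.53, edgeR adjusted p = 0.567). Coro1a, an actin regulator, ran from 3.0 to 4.40 CPM in control and from 2.83 to 8.34 CPM in knockout libraries. Cd52, a small surface glycoprotein gene, ran from 0.903 to 2.28 and from 0.512 to 3.23 CPM.

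Lcp1, the actin-bundling protein L-plastin, measured 6.10, 5.15 and 7.32 CPM in control and 12.2, 11.8 and 6.56 CPM in knockout libraries. Knockout 1 and 2 were above all controls, and knockout 3 lay inside the control range. The log2 fold change was 0.70 (SE 0.25, edgeR adjusted p = 0.121), and the gene was called without knockout 3 (adjusted p = 0.0212) and without a filter on low counts (0.0311), with adjusted p from 0.0212 to 0.423 over 16 alternatives. Lcp1 shares exon bases with the opposite-strand noncoding genes Gm15628 and Gm15629, whose reads cannot be separated where strand was not used in counting.

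Macrophage identity genes overlapped between the groups for all 8 members tested. Csf1r, the receptor of CSF1 and IL-34, measured 3.84, 5.70 and 6.998 CPM in control and 8.47, 4.81 and 5.31 CPM in knockout libraries. Its log2 fold change was 0.12 with a 95% interval from -0.49 to 0.74 (edgeR adjusted p = 0.850). Csf1r also shares exon bases with Hmgxb3 on the other strand.

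Adgre1, which encodes the F4/80 antigen of mouse macrophages, measured 2.94, 1.12 and 1.97 CPM in control and 3.88, 3.37 and 1.67 CPM in knockout libraries. The log2 fold change was 0.58 (SE 0.43, edgeR adjusted p = 0.478), positive under all 16 alternatives and called in none. Cd68, a lysosomal glycoprotein gene of phagocytes, stood at 8.36, 11.5 and 23.3 CPM in control and 11.1, 12.4 and 11.2 CPM in knockout libraries. Here the knockout libraries lay close together and control 3 stood at the top.

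Lyz2, the lysozyme of phagocytes, measured 35.8, 15.7 and 13.9 CPM in control and 42.4, 16.5 and 10.7 CPM in knockout libraries. The shallow library of each group was the high one, and the other 4 lay between 10.7 and 16.5 CPM. Its near-identical neighbour Lyz1 can share reads with it, so these levels are uncertain. Spi1, encoding PU.1, measured 0.565, 0.921 and 2.56 CPM in control and 3.23, 2.65 and 1.44 CPM in knockout libraries. Its log2 fold change of 0.76 (SE 0.52) had an interval from -0.36 to 1.88 (edgeR adjusted p = 0.440), and control 1 held 10 counts of it.

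Mrc1, the mannose receptor CD206, stood at 1.69, 0.822 and 0.911 CPM in control and 0.129, 1.70 and 1.35 CPM in knockout libraries. Knockout 1, which was highest for most other members, held only 2 counts of Mrc1. Cx3cr1, the fractalkine receptor, went the other way from most members, with 1.92, 1.29 and 0.658 CPM in control and 1.81, 0.275 and 0.891 CPM in knockout libraries (log2 fold change -0.43, SE 0.65, edgeR adjusted p = 0.768). Aif1, which encodes the calcium-binding protein IBA1, ran from 0.565 to 1.76 CPM in control and from 0.812 to 2.14 CPM in knockout libraries.

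**Figure D3:**
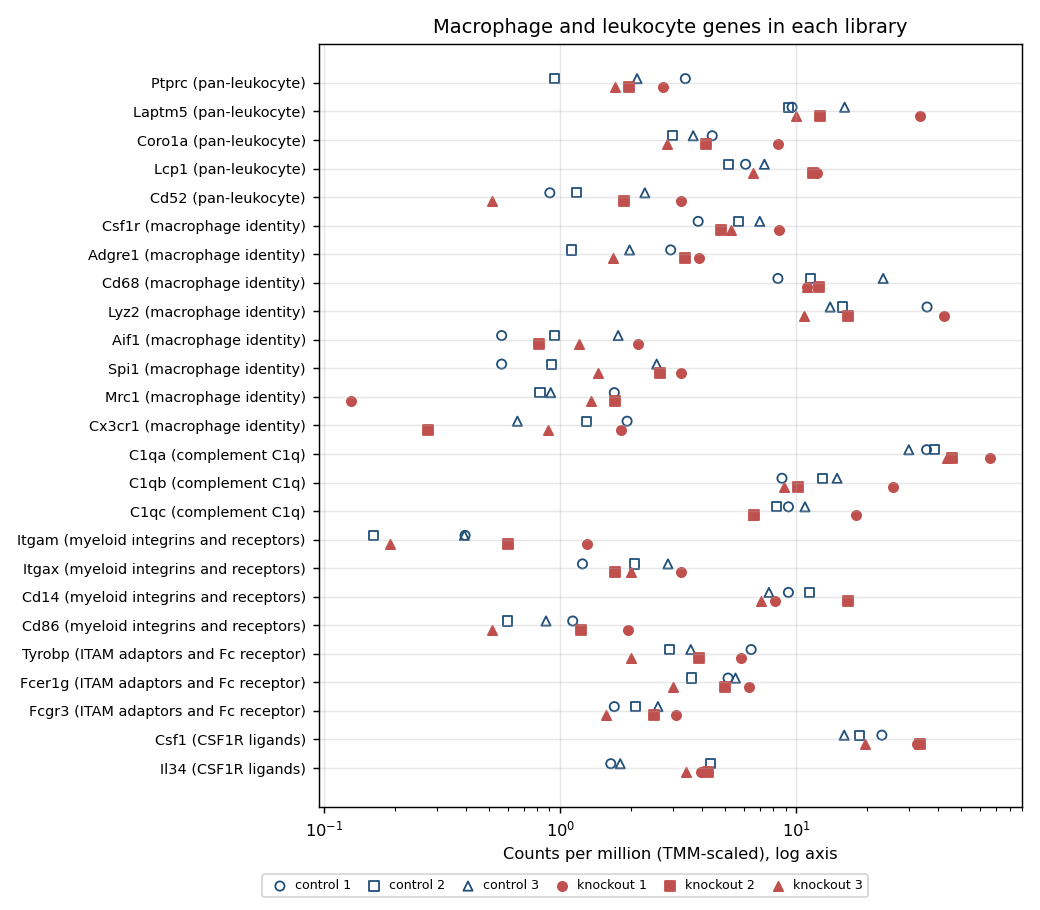
Level of each of the 25 tested genes in every library (x axis, TMM-scaled CPM, log axis), with role in brackets on the y axis. Open blue symbols are control and filled red symbols knockout libraries; the groups overlap for every gene but C1qa, and the filled circle of knockout 1 is the rightmost point for most leukocyte genes.

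The 3 chains of C1q did not rank the libraries alike. C1qa (ENSMUSG00000036887) measured 35.6, 38.4 and 30.0 CPM in control and 66.4, 45.8 and 43.3 CPM in knockout libraries, so that every knockout library exceeded every control. The means were 34.7 ± 4.31 and 51.9 ± 12.7 CPM (SD, n = 3 per group). With a log2 fold change of 0.58 (SE 0.17, a 95% interval from 0.21 to 0.94) it missed the threshold by edgeR (adjusted p = 0.0580).

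C1qa was called in 5 of 16 alternatives: DESeq2 (adjusted p = 0.0222), no filter (0.00159), length offsets (0.0430), and without knockout 2 or knockout 3 (0.0495 and 0.0212). Without knockout 1 the log2 fold change was 0.37 (edgeR adjusted p = 0.195), and over all alternatives the adjusted p ran from 0.00159 to 0.292. The direction was the same in each.

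C1qb, the B chain, stood at 8.69, 12.9 and 14.9 CPM in control and 25.6, 10.2 and 8.87 CPM in knockout libraries. C1qc, the C chain, stood at 9.26, 8.23 and 10.9 CPM in control and 18.0, 6.59 and 6.54 CPM in knockout libraries. For both chains knockout 1 was the highest library, while knockout 2 and 3 lay below at least 2 of the 3 controls. Their log2 fold changes were 0.24 and 0.09 (edgeR adjusted p 0.805 and 0.927). Without both shallow libraries these became -0.54 and -0.54 (0.206 and 0.262), while that of C1qa was 0.39 (0.292).

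Within a library, C1qa exceeded C1qc 3.85-, 4.67- and 2.75-fold by CPM in control 1, 2 and 3 and 3.69-, 6.94- and 6.63-fold in knockout 1, 2 and 3. The difference between groups in this log2 ratio was 0.59 by an exact two-sided permutation test with p = 0.3 (0.6 after Benjamini-Hochberg adjustment over 3 pairs of chains), in a design whose smallest p is 0.1. C1qa over C1qb gave p = 0.4 and C1qb over C1qc p = 0.7 by the same exact test. The ratios were formed after the values of the chains had been seen. Per kilobase of exon, the control levels of C1qa, C1qb and C1qc were 33.3 ± 4.15, 11.2 ± 2.90 and 4.90 ± 0.693 RPKM (SD, n = 3).

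**Figure D4:**
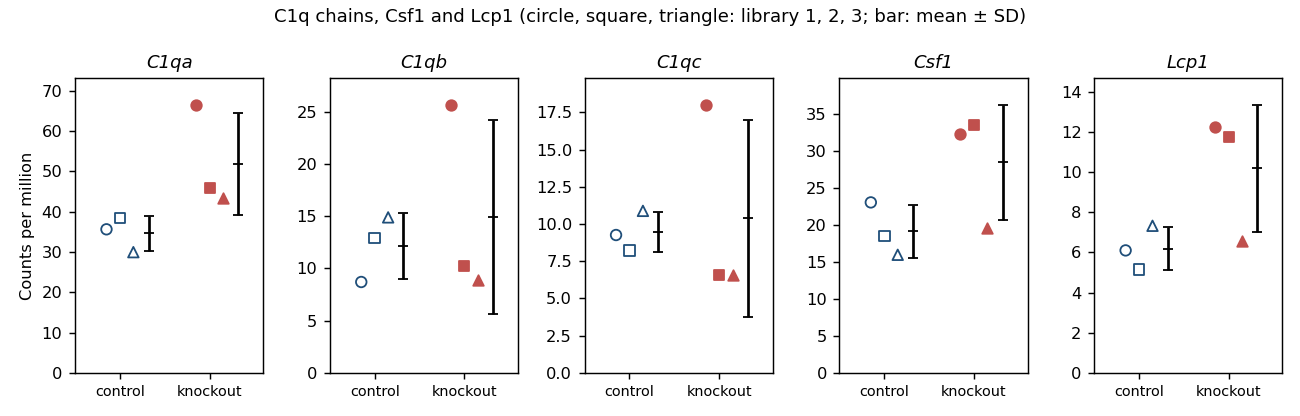
CPM (y axis, from 0, a separate scale for each gene) of the C1q chains, Csf1 and Lcp1 in control (open) and knockout (filled) libraries, with mean ± SD of 3 libraries at the side. For C1qa all knockout points lie above 38.4, the highest control, whereas for C1qb and C1qc only knockout 1 stands above the controls.

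None of the adaptors that carry activating signals from myeloid receptors was called. Tyrobp, which encodes the adaptor DAP12, measured 6.44, 2.91 and 3.57 CPM in control and 5.82, 3.86 and 1.99 CPM in knockout libraries (log2 fold change -0.16, a 95% interval from -1.03 to 0.72). Fcer1g, the gamma chain shared by Fc receptors, measured 5.14, 3.61 and 5.52 CPM in control and 6.27, 4.97 and 3.02 CPM in knockout libraries (-0.02, from -0.67 to 0.63). In both genes knockout 3 was the lowest of the 6 libraries. Fcgr3, a low-affinity receptor for IgG that signals through this chain, ran from 1.69 to 2.59 CPM in control and from 1.56 to 3.11 CPM in knockout libraries.

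Myeloid surface receptors overlapped between the groups as well. Itgax, the integrin CD11c of islet macrophages and dendritic cells, ran from 1.24 to 2.86 CPM in control and from 1.70 to 3.23 CPM in knockout libraries. Itgam, the integrin CD11b, ran from 0.162 to 0.395 and from 0.190 to 1.29 CPM. Its counts are uncertain, since the annotated gene Gm49368 shares 3450 exon bases on the same strand. Cd14, the co-receptor for bacterial lipopolysaccharide, was highest in knockout 2 at 16.6 CPM, with the other 5 libraries between 7.11 and 11.4 CPM. Cd86, a costimulatory ligand of T cells, ran from 0.597 to 1.13 CPM in control and from 0.512 to 1.94 CPM in knockout libraries. Ccr2, the receptor that recruits monocytes, was not tested and held at most 30 counts in a library, with 0 in control 1, knockout 2 and knockout 3.

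The lymphocyte members were nearly absent, so the set was read here as one of macrophage and pan-leukocyte genes. None of the 5 T- and B-cell members passed the filter, and 18 of their 30 counts were at 3 or fewer. Cd3e, the invariant chain of the T-cell receptor complex, held 0, 2 and 2 counts in control and 0, 0 and 0 in knockout libraries. The 3 counts taken as the floor correspond to 0.0135 CPM in control 3 and 0.194 CPM in knockout 1, for counting error only. Of the counts above 0 in the table, 66.9% were even, and of those of the members 79.4%, the pattern that counting each mate of a read pair would give, so a count may be less than a fragment. Cd3d held at most 6 counts, Cd8a at most 8 and Ms4a1, the B-cell antigen CD20, at most 30. Cd4, the co-receptor of helper T cells, held at most 46 counts, in control 3.

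The CSF1R ligands had similar log2 fold changes and neither was called. Csf1, made by stromal, endothelial and endocrine cells, measured 23.0, 18.5 and 16.0 CPM in control and 32.3, 33.4 and 19.5 CPM in knockout libraries. Knockout 1 and 2 exceeded every control, and knockout 3 lay between control 1 and control 2. The log2 fold change was 0.57 (SE 0.21, a 95% interval from 0.12 to 1.03, edgeR adjusted p = 0.125). Csf1 was called without knockout 3 (adjusted p = 0.00873) and without a filter (0.00860), over a range of 0.00860 to 0.309 in 16 alternatives.

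Il34 measured 1.64, 4.32 and 1.80 CPM in control and 3.95, 4.22 and 3.40 CPM in knockout libraries. All knockout libraries exceeded control 1 and 3, but control 2 was the highest of the 6 (log2 fold change 0.55, SE 0.37, edgeR adjusted p = 0.432). Per kilobase, the control level of Csf1 was 3.63 ± 0.680 RPKM and that of Il34 was 1.32 ± 0.768 RPKM (SD, n = 3). Endothelial markers summed to 279 to 334 CPM in control and 327 to 416 CPM in knockout libraries. Of these 10 genes 1, the cadherin gene Cdh5, was called higher (log2 fold change 0.51, edgeR adjusted p = 0.0481), against 3.72% of all genes. Cdh5 was called in 9 of 16 alternatives (adjusted p from 0.00800 to 0.201). Among others, the call was lost without control 1, control 2, knockout 1 or knockout 2 (0.0787 to 0.172). It was also lost with upper-quartile scaling (edgeR adjusted p = 0.0564). DESeq2 called Cdh5 and Plvap higher, against 1107 of 18556 of all genes, and limma-voom called 0 of the list. Their part in the values of Csf1 was not tested.

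Other genes of the same cells were read from lists chosen with earlier results of these data known. Of 32 further macrophage genes tested, 0 were called (6 higher and 0 lower at an unadjusted p under 0.05 by edgeR, against 10.9% and 10.7% of all genes), with a median log2 fold change of 0.35. DESeq2 called 3 of them higher (Clec7a, Cybb and Ncf1), against 1107 of 18556 of all genes, and limma-voom 0. Ncf1, a subunit of the phagocyte oxidase, had the smallest p: it measured 0.621, 0.697 and 1.34 CPM in control and 3.11, 2.53 and 1.59 CPM in knockout libraries (edgeR adjusted p = 0.0814). Every knockout library was above every control, and Ncf1 was called in 3 of 16 alternatives (adjusted p from 0.0260 to 0.317).

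A list drawn up for signalling from CSF1R and ITAM adaptors had 1 of 18 called by edgeR, against 3.72% of all genes called higher. The called gene was Pik3r5, which was higher, and its part in that signalling was not tested. DESeq2 and limma-voom each called 2 higher, Lyn and Pik3r5, against 1107 of 18556 and 794 of 18558 of all genes. Lyn, a Src-family kinase gene, stood at 6.70 to 8.69 CPM in control and 9.77 to 14.3 CPM in knockout libraries (log2 fold change 0.60, SE 0.20, adjusted p = 0.0940 by edgeR). Pik3r5, a regulatory subunit of phosphoinositide 3-kinase gamma, measured 0.790, 0.846 and 1.06 CPM in control and 1.94, 2.85 and 2.20 CPM in knockout libraries. It rose, with the groups apart, by 1.36 on the log2 scale (SE 0.38, adjusted p = 0.0471 by edgeR). Pik3r5 was called in 7 of 16 alternatives (adjusted p from 0.00774 to 0.190). The call was lost when any 1 of the 6 libraries was left out (adjusted p from 0.0651 to 0.190 by edgeR) and with upper-quartile scaling (0.0518).

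Chemokines and their receptors, which draw leukocytes into tissue, had log2 fold changes above 0 for 19 of 21 genes tested, against 49.8% of all genes, with a median of 0.999. At an unadjusted p under 0.05, 7 of 21 were higher, against 10.9% of all genes. By edgeR 1 was called higher and 0 lower, by DESeq2 5 higher (Ccl2, Ccl7, Cxcl1, Cxcl9 and Cxcl10) and by limma-voom 0. Of all genes, 3.72% were called higher by edgeR and 1107 of 18556 by DESeq2. Ccl7, a ligand of CCR2, measured 1.36, 0.772 and 0.451 CPM in control and 6.47, 6.94 and 1.46 CPM in knockout libraries. It rose by 2.64 on the log2 scale (SE 0.62, adjusted p = 0.0324 by edgeR), with knockout 3 just above control 1. Leaving out any 1 library other than knockout 3 ended the call, with adjusted p from 0.0516 to 0.195.

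Ccl2, the main ligand of CCR2, measured 3.95, 3.41 and 1.64 CPM in control and 18.9, 16.1 and 3.43 CPM in knockout libraries (log2 fold change 2.12, SE 0.74, edgeR adjusted p = 0.179). Cxcl1, which attracts neutrophils, measured 2.15, 1.44 and 0.974 CPM in control and 30.0, 11.4 and 0.948 CPM in knockout libraries (3.27, SE 1.36, adjusted p = 0.272). Both genes were high in knockout 1 and 2 and at control level in knockout 3, and Csf1 and Lcp1 also exceeded all controls only in knockout 1 and 2. Ccl2 and Cxcl1 were singled out after their values were seen.

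**Figure D5:**
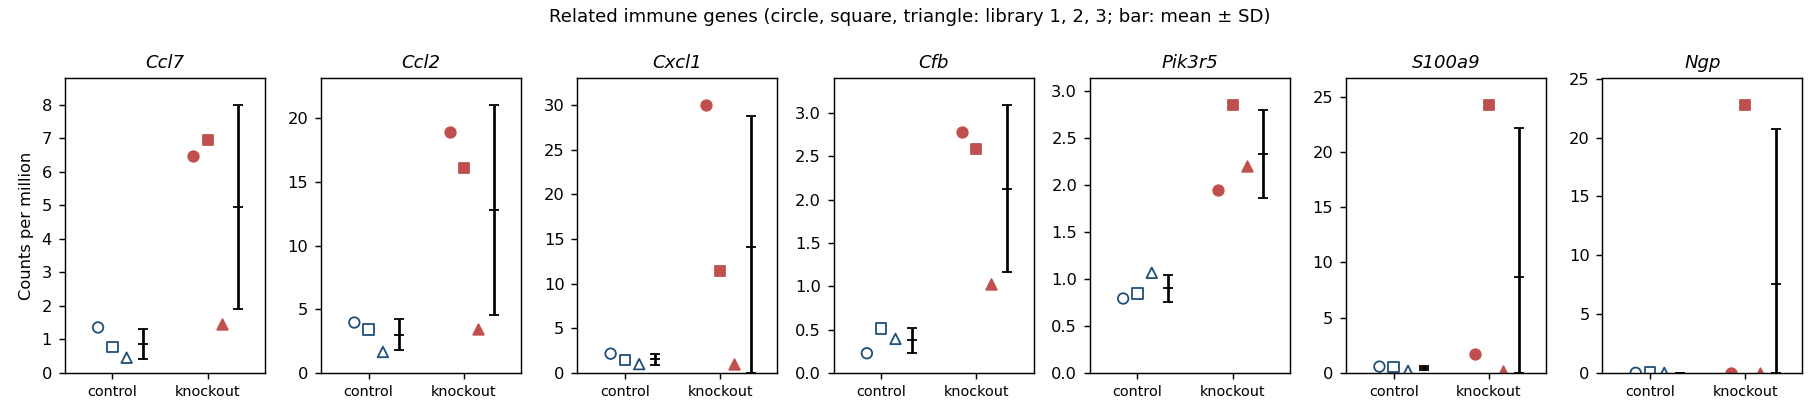
CPM (y axis, from 0, a separate scale for each gene) of Ccl7, Ccl2, Cxcl1, Cfb, Pik3r5, S100a9 and Ngp in control (open) and knockout (filled) libraries, with mean ± SD of 3 libraries, cut off at 0. Knockout 3 lies near the controls for the chemokines, and S100a9 and Ngp stand out only in knockout 2, at 24.3 and 22.8.

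Of 13 further complement genes 1 was called, and it was higher. Cfb, factor B of the alternative pathway, measured 0.226, 0.510 and 0.392 CPM in control and 2.78, 2.58 and 1.02 CPM in knockout libraries. It rose by 2.40 on the log2 scale (SE 0.53, adjusted p = 0.0168 by edgeR) without overlap between the groups. Leaving out control 1 (adjusted p = 0.0581), knockout 1 (0.0608), knockout 2 (0.0642) or both shallow libraries (0.157) ended the call, as did limma-voom (0.0521).

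Neutrophil granule genes separated knockout 2 from the other 5 libraries. Ngp, a neutrophil granule protein gene, held 1823 counts there (22.8 CPM) and at most 2 counts elsewhere, and Camp, the cathelicidin gene, held 274 counts there and 0 elsewhere. S100a8, a subunit of calprotectin, held 1042 counts in knockout 2 and at most 6 in the others. S100a9, the other subunit, stood at 24.3 CPM in knockout 2 and 1.68 CPM or less in the others. The filter did not pass S100a8, Ngp or Camp. The 15 monocyte and neutrophil genes had 0 of 6 called by edgeR. At an unadjusted p under 0.05 by edgeR, 1 was higher, Ly6c2, and 0 lower, against 10.9% and 10.7% of all genes. DESeq2 called 2 higher (Ly6c2 and S100a9), against 1107 of 18556 of all genes, and limma-voom 0. Ly6c2 is uncertain, since its near-identical copy Ly6c1, an endothelial gene, can share its reads. Their sum was 75.2 CPM in knockout 2 and 2.37 to 7.50 CPM in the other libraries, and the part of such cells in the values of Lcp1, Cd14 and the chemokines in knockout 2 was not tested. Granule genes were named after their values were seen.

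MHC class II genes, which macrophages and dendritic cells use to present antigen, had 0 of 7 called by edgeR, DESeq2 or limma-voom. By edgeR 0 of 7 had an unadjusted p under 0.05, against 21.6% of all genes. The median log2 fold change was -0.01. Cd74, the invariant chain and chosen here after its values were seen, measured 44.4, 36.7 and 60.6 CPM in control and 75.2, 45.9 and 42.8 CPM in knockout libraries. The top library was knockout 1, as for most macrophage members. H2-DMa, which had the smallest p of the list, gave -0.32 on the log2 scale (edgeR adjusted p = 0.601).

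No gene was called by edgeR, DESeq2 or limma-voom among the further lymphocyte, dendritic, mast-cell and cytokine lists. At an unadjusted p under 0.05 by edgeR, 10.9% of all genes were higher and 10.7% lower. This level was reached by 0 of 4 dendritic-cell, 0 of 2 natural killer and innate lymphoid and 0 of 2 mast-cell genes. The smallest p of these lists belonged to Ccr7 (log2 fold change 0.82, edgeR adjusted p = 0.440), Il1rl1 (1.03, 0.495) and Kit (0.27, 0.604). The same count was 1 of 9 for T cells, the lower Trbc1 (log2 fold change -2.29, edgeR adjusted p = 0.226), and 1 of 7 for B cells, the higher Fcmr (1.77, adjusted p = 0.189). Of 15 cytokine genes 1 was higher at that level, Il1a (1.85, adjusted p = 0.196 by edgeR), and 1 lower. The latter, Flt3l, is a growth factor of dendritic cells and gave -0.997 on the log2 scale (edgeR adjusted p = 0.1399). It measured 2.37, 3.19 and 1.91 CPM in control and 1.55, 1.32 and 0.939 CPM in knockout libraries. Skap1, a T-cell adaptor gene, stood at 35.8 to 54.2 CPM in every library while the CD3 members were near 0. Other lymphocyte genes were also measurable in every library: Lck, a T-cell kinase, at 2.19 to 4.07 CPM, Tcf7, a T-cell transcription factor, at 1.29 to 3.995 CPM, and Cd79a, a B-cell receptor subunit, at 1.38 to 4.69 CPM. Lck, Tcf7 and Cd79a were chosen after their values were seen.

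Ccl7, Cfb and Pik3r5 were called higher by edgeR, 1 of 21, 1 of 13 and 1 of 18 genes of their lists. These counts stand against 3.72% of all genes called higher, and the other lists of immune genes had 0 called by edgeR. The beta-cell list had 3 of 9 called lower (G6pc2, Mafa and Ucn3), against 3.35% of all genes, and a median log2 fold change of -0.61. Of 16 alternatives, 15 called G6pc2 and 11 each Mafa and Ucn3. Without both shallow libraries all 3 calls were lost (adjusted p 0.105, 0.174 and 0.203 by edgeR). Mafa was also lost without control 1, control 3 or knockout 1 (0.0607 to 0.0625), and Ucn3 without control 1, knockout 1 or knockout 2 (0.0548 to 0.0809). Stromal markers had 0 of 10 called and acinar markers 0 of 16 by edgeR. At an unadjusted p under 0.05 by edgeR these counts were 1, the higher Rgs5, and 0, against 21.6% of all genes. Cel, a lipase gene, had the smallest p of the acinar list (log2 fold change 0.54, edgeR adjusted p = 0.620). DESeq2 called Rgs5 higher, against 1107 of 18556 of all genes, and limma-voom called none of either list. A list of lymph node stroma genes, which mark lymphoid tissue carried along with pancreas, was also summed. It ran from 0.635 to 3.05 CPM in control and 0.569 to 4.14 CPM in knockout libraries, highest in knockout 1. Cxcl13 alone made up 3.11 of the 4.14 CPM in knockout 1 and 2.15 of the 3.05 CPM in control 1. Cxcl13 and Cr2 were highest in knockout 1. Ccl19 was highest in control 1, Glycam1 in control 3, Ccl21a in knockout 2 and Madcam1 in knockout 3. The smallest p of that list was that of Ccl21a (log2 fold change 1.77, edgeR adjusted p = 0.377), whose near-identical copies make its counts uncertain. The part of such tissue in the levels of knockout 1 was not tested.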

How the data were processed

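RNA of whole islets was sequenced in 3 control and 3 knockout libraries, and the authors deposited 1 table of whole-number counts per Ensembl gene. Tools named in the submitters' processing notes are STAR 2.7.3a, featureCounts, Trim Galore 0.6.7 and FastQC 0.11.9, with the build GRCm39. The sources used here give neither annotation release nor strand setting. Libraries were grouped by column name, which gives the group but not the individual sample, and are numbered as the columns are. The members and lists were chosen with earlier results of these data known.

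Genes passing filterByExpr were scaled by TMM and tested with edgeR 4.0.16 (quasi-likelihood, robust) in R 4.3.3, with Benjamini-Hochberg adjustment and a threshold of 0.05. The script was tested on simulated data. DESeq2 1.42.0, limma-voom (limma 3.58.1), other scalings and filters, and leaving out libraries were alternatives, and length offsets and halved counts were added after seeing the data. Symbols were matched for 52073 of 56980 IDs. RPKM values were computed from the deposited counts on GENCODE exon lengths (GRCm38), and overlapping exons were read from the same annotation. All members were accounted for; values per library are given for members with an unadjusted p under 0.05 and for a set of defining genes, and each related list is represented by its called genes (at most 4) or by its smallest p. Counting intervals and floors cover counting error only.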

Additional observations from a re-analysis of the deposited data

How the results depend on the processing

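Among all genes tested, 1312 were called by edgeR, against 2153 without a filter on low counts, 2094 with DESeq2 and 124 without both shallow libraries (control 1 and knockout 1). Leaving out 1 library gave 519 to 1309, with 661 without control 1, 519 without control 2 and 610 without knockout 1. Upper-quartile scaling gave 613 higher and 829 lower (42.5% higher, against 52.7%). Among the members, 0 were called higher, against 3 without a filter, 1 with DESeq2, 1 with length offsets and 0 to 3 when 1 library was left out (3 without knockout 3, 1 without knockout 2). Members with a log2 fold change above 0 numbered 20, against 13 with limma-voom, 12 without both shallow libraries and 10 to 22 when 1 library was left out (10 without knockout 1). The log2 fold change of C1qc ran from -0.52 (without knockout 1) to 0.34 (without knockout 2) when 1 library was left out, and was -0.54 without both shallow libraries, and that of C1qb was -0.54 there. The cause was not tested. Of the 25 tested members, 17 changed sign under at least 1 of 16 alternatives and 3 were called under at least 1. The count of members called lower was 0 throughout. Halved counts moved none of these counts by over 1.5 times.

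No paired analysis was possible because the names of the count columns match no sample title, and the titles of the groups share fewer than 2 numbers. Depth limits the lymphocyte genes, Ccr2 and Mrc1 in the shallow libraries, where a few counts decide a value.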
